A study of Homo sapiens with 18 samples.

Results

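The response of mRNA to NACET was compared between ARPE-19 cells with intact NRF2 and ARPE-19 cells with truncated NRF2. ARPE-19 cells are an established human line of the retinal pigment epithelium (RPE), and NACET, the N-acetylcysteine ethyl ester, is a cysteine precursor that crosses membranes. The comparison used 12 of the 18 sequenced samples, 3 in each of 4 groups. For every gene it asked whether the change with NACET differed between the cell lines, and the answer is an interaction, the log2 NACET response of control cells minus that of NRF2 ΔC cells. A positive interaction means a more positive response in control cells, which can be a larger rise or a smaller fall. Control cells had received a Cas9 vector without a guide RNA. NRF2 ΔC cells, labelled C1 in the samples, are a clone that received the same vector with a guide against NFE2L2, which encodes NRF2, at its last exon. Their edited alleles carry stop codons at positions 503 and 505, and both lines carry Cas9. Since every NRF2 ΔC library comes from this clone, the edit and other features of the clone cannot be told apart. Within each line, untreated cells received water and treated cells 1 mM NACET. The sources disagree on timing and serum. The series' design text names both 1% and 10% serum and gives 40 h of culture and 8 h of treatment, whereas the sample protocol gives 22 h and 2 h in 1% serum. The other 6 samples received 0.2 mM H2O2 and are used here only for values set beside those of NACET.

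NRF2 is a transcription factor that KEAP1 binds and sends to degradation in unstressed cells. Electrophiles and oxidants modify cysteines of KEAP1, so that NRF2 accumulates, pairs with a small MAF protein and binds antioxidant response elements (ARE) in its target genes. These targets supply cystine and glutathione, reduce thioredoxin, quinones and carbonyls, handle heme and iron, and make NADPH. The end of NRF2 that NRF2 ΔC cells lack holds part of the domain that binds DNA and MAF. In the RPE, which lives with light and high oxygen use, this pathway is a main defence against oxidative damage.

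The 12 libraries held between 18224332 and 25951154 counts on genes, and 15901 to 16581 genes were detected in each. Levels are given as CPM, counts scaled to the library total after TMM correction for library composition. The marker levels of this paragraph and the sums of prostate genes are exceptions, scaled to the counts on genes without that correction. Of the RPE markers, KRT8 and KRT18, keratins of simple epithelia, lay at 491 to 674 and 381 to 506 CPM, and the transcription factors OTX2 and MITF at 108 to 180 and 65.2 to 183 CPM. The visual cycle gene RPE65 stayed at or under 0.0514 CPM and TTR at or under 0.0918 CPM, so these defining genes of the mature RPE were at or near 0 in every library. The leukocyte gene PTPRC and the endothelial gene CDH5 were at or near 0 too. Of the 13 markers of other cell types, PDGFRB, a gene of mesenchymal cells, lay at 86.7 to 447 CPM, the macrophage gene CD68 at 83.5 to 144 CPM, COL1A1, a collagen of mesenchymal cells, at 37.7 to 170 CPM, and the fibroblast gene FAP at 21.2 to 62.4 CPM. Other mesenchymal markers on the list were at or near 0. COL1A2 stayed at or under 0.0476 CPM, COL3A1 at or under 0.322 CPM and THY1 at or under 0.0514 CPM. The 13 summed to 521 to 748 CPM in untreated and 399 to 526 CPM in treated control cells, against 415 to 582 and 322 to 456 CPM in NRF2 ΔC cells, and their part in the results was not tested.

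A pair of libraries stood apart from the rest. Control NACET replicate 2 and NRF2 ΔC NACET replicate 3 held counts of genes known from prostate epithelium, which were chosen after their values were seen. KLK3, the gene for prostate-specific antigen, had 1070 and 523 counts in these libraries and 0 to 16 in the other 10. KLK2 had 438 and 260 counts in them, and TMPRSS2 had 259 and 110. The 8 genes KLK2, KLK3, KLK4, TMPRSS2, FOLH1, HOXB13, SPDEF and FOXA1 summed to 120 and 61.0 CPM of the counts on genes in these 2 libraries, and to 0.0472 to 2.90 CPM (median 0.173) in the other 10. Both are NACET libraries, 1 in each cell line, so results are also given without them below, and beyond this their part in the results was not tested.

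NFE2L2, on chromosome 2 at 178083395 to 178257484 of GRCh37 (minus strand), was compared first. Its mRNA was at 121, 126 and 125 CPM in untreated and 106, 109 and 105 CPM in NACET-treated control cells. In NRF2 ΔC cells it was at 123, 126 and 128 CPM untreated and 110, 117 and 101 CPM with NACET. The levels of the lines overlapped in both conditions, and the interaction was -0.02 on the log2 scale (95% confidence interval -0.26 to 0.23, adjusted p = 1). NFE2L2 was lower with NACET in both lines, by log2 -0.22 in control and -0.20 in NRF2 ΔC cells. These falls were not called (adjusted p = 0.145 and 0.152). They were called in the fit with the replicate number as a block, described below (0.0108 and 0.014). Counts over the whole gene do not show the edit. KEAP1, whose product restrains NRF2, had an interaction of 0.15 (95% confidence interval -0.28 to 0.58). MAFG, 1 of the small MAF partners, ranged from 64.2 to 78.6 CPM in untreated and from 122 to 149 CPM in NACET-treated control cells, against 58.6 to 79.9 and 79.4 to 93.4 CPM in NRF2 ΔC cells.

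Only genes with a larger response in control cells were called in the interaction. Of 14002 genes tested, 9 had an adjusted p-value under 0.05 (edgeR's quasi-likelihood test, Benjamini-Hochberg adjustment over all genes tested), which is 0.0643% of them. None (0%) was called with a more positive response in NRF2 ΔC cells. In that direction 78 genes reached an unadjusted p-value under 0.05, and DESeq2 called none there either. Each line's own response was broader. NACET raised 304 genes (2.17%) and lowered 279 (1.99%) in control cells, and raised 459 (3.28%) and lowered 517 (3.69%) in NRF2 ΔC cells. Over all genes tested, the interaction had a median of 0.01 and a standard deviation of 0.32 on the log2 scale. The called genes reported by name are TXNRD1, TRIM16L, TRIM16, AKR1C3, PTGR1, FTL, SLC48A1 and SLC6A6.

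Within a line, libraries that share a replicate number moved together around their group means, so the interaction was also fitted with the replicate number as a block within each line. This fit called 107 genes with a more positive response in control cells (0.764%) and 19 with a more positive response in NRF2 ΔC cells (0.136%). All 9 genes above were among the 107. Not all of the 107 rose in control cells: 26 fell in both lines, and a further 19 fell in NRF2 ΔC cells and were not called in control cells. The block fit also called more genes in each line, 2309 up (16.5%) and 2296 down (16.4%) in control and 2517 up (18.0%) and 2764 down (19.7%) in NRF2 ΔC cells. Values called with the block alone are named as such below. As a plain view of the pairs, the 3 differences between samples of the same number were compared. Those of control cells all lay above those of NRF2 ΔC cells in 1094 genes (7.81%), and all below them in 876 (6.26%).

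**Figure D1:**
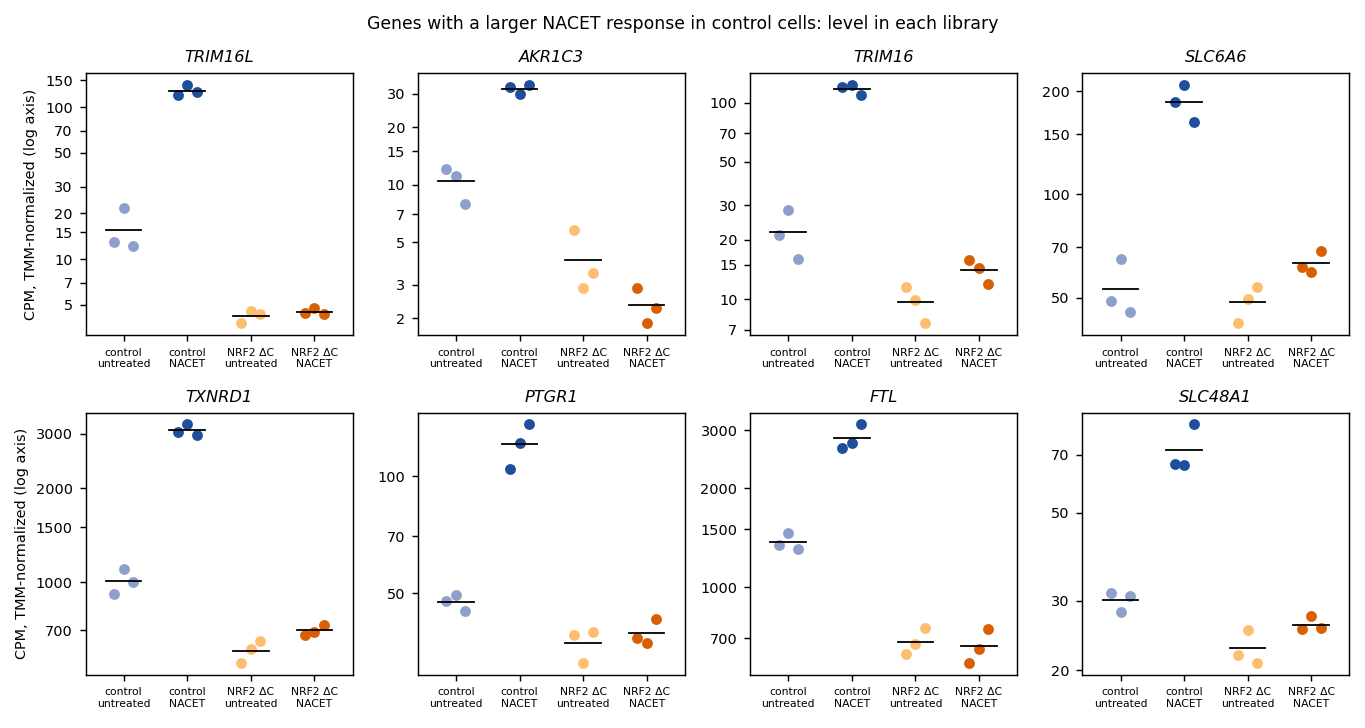
Levels of the 8 named genes called in the interaction, in TMM-normalized CPM on log axes that differ between panels, with a point for each library and a black bar for the mean of 3. In every panel the 3 NACET-treated control libraries lie above all other libraries, and for TRIM16L they lie at 120 to 139 CPM against 4.34 to 4.74 CPM in NACET-treated NRF2 ΔC cells.

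TXNRD1, cytosolic thioredoxin reductase, reduces thioredoxin with NADPH and is encoded on chromosome 12 at 104609557 to 104744085 of GRCh37. It was at 918, 1098 and 1003 CPM in untreated control cells and at 3026, 3211 and 2977 CPM after NACET. The NRF2 ΔC libraries held it at 551, 608 and 647 CPM untreated and at 678, 694 and 726 CPM with NACET. The groups did not overlap in either line, and the treated NRF2 ΔC libraries stayed below the untreated control libraries. TXNRD1 rose 3.05-fold in control cells, against a fold change of 1.16 in NRF2 ΔC cells, an interaction of 1.39 (standard error 0.14, adjusted p = 0.00377). The small rise in NRF2 ΔC cells was called with the block (adjusted p = 0.00822) but not without it (0.231).

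TRIM16 and TRIM16L had, together with AKR1C3, the largest interactions among the called genes. TRIM16 is a ubiquitin ligase that works with p62 in selective autophagy, and TRIM16L is a close copy of it on the same chromosome. TRIM16 lies on chromosome 17 of GRCh37 at 15531274 to 15587625, and GENCODE lists TRIM16L there as a long non-coding RNA at 18601311 to 18639431 and as a transcribed pseudogene at 18625550 to 18638773. Reads shared between such copies can be split or lost, so the value of each is uncertain. TRIM16L was at 12.9, 21.7 and 12.2 CPM in untreated control cells and at 120, 139 and 125 CPM with NACET. In NRF2 ΔC cells it was at 3.78, 4.56 and 4.34 CPM untreated and at 4.43, 4.74 and 4.34 CPM with NACET. The control groups were far apart and the NRF2 ΔC groups overlapped. Control cells showed a fold change of 8.21 and NRF2 ΔC cells one of 1.06, and the interaction of 2.95 (standard error 0.28, adjusted p = 0.003) was the largest among the called genes. TRIM16 went from 21.2, 28.5 and 16.1 CPM to 121, 123 and 109 CPM in control cells, and from 11.5, 9.86 and 7.53 to 15.8, 14.4 and 11.9 CPM in NRF2 ΔC cells. Its groups did not overlap in either line, and its interaction was 1.88 (standard error 0.28, adjusted p = 0.0464). The rise of TRIM16 in NRF2 ΔC cells was called with the block (adjusted p = 0.0017) but not without it (0.137). SQSTM1, the gene for p62, had an interaction of 0.70 that was called with the block alone (adjusted p = 0.000102, 0.911 without it).

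Of the reductases of quinones and carbonyls, AKR1C3 and PTGR1 were called. AKR1C3 is an aldo-keto reductase on chromosome 10 (5077546 to 5149878 of GRCh37), and close relatives in its cluster could share its reads. It was at 12.2, 11.1 and 7.94 CPM in untreated and at 32.6, 29.7 and 33.2 CPM in NACET-treated control cells. In NRF2 ΔC cells it was at 5.77, 2.88 and 3.46 CPM untreated and at 2.88, 1.88 and 2.26 CPM with NACET, lower in each pair of the same number. It rose in control cells (log2 1.61), and the block called a fall in NRF2 ΔC cells (log2 -0.78, adjusted p = 0.00386). Its interaction was 2.38 (standard error 0.35, adjusted p = 0.0464). PTGR1, a prostaglandin reductase, lies on chromosome 9 at 114312002 to 114362173. It went from 47.9, 49.4 and 45.2 CPM to 105, 121 and 136 CPM in control cells, and was at 39, 33.2 and 39.8 CPM before and 38.5, 37.3 and 43 CPM after NACET in NRF2 ΔC cells, where the groups overlapped. Its interaction was 1.26 (standard error 0.16, adjusted p = 0.0239).

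Iron and heme were represented by FTL and SLC48A1. FTL, ferritin light chain, stores iron (chromosome 19, 49468566 to 49470136), and it has many processed copies in the genome that could take reads. It was at 1346, 1463 and 1307 CPM in untreated and at 2651, 2751 and 3123 CPM in NACET-treated control cells. NRF2 ΔC cells held 626, 673 and 751 CPM before and 591, 648 and 747 CPM after NACET, an overlapping range. Its interaction was 1.10 (standard error 0.17, adjusted p = 0.0464). SLC48A1, which moves heme out of lysosomes (chromosome 12, 48147699 to 48176534), went from 31.3, 28.2 and 30.8 CPM to 66.3, 66.1 and 83.6 CPM in control cells. Its NRF2 ΔC levels were 21.9, 25.3 and 20.9 CPM and then 25.4, 27.4 and 25.5 CPM, with each treated library above each untreated one by a small margin. Its interaction was 1.06 (standard error 0.16, adjusted p = 0.0464).

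SLC6A6 imports taurine, an end product of cysteine, and lies on chromosome 3 at 14444076 to 14530857. It was at 48.7, 64.9 and 45.2 CPM in untreated control cells and at 186, 209 and 163 CPM with NACET. NRF2 ΔC cells held 42, 49.6 and 53.7 CPM before and 61.4, 59.2 and 68.3 CPM after NACET. That rise was called with the block (adjusted p = 0.000529) but not without it (0.149). Unlike the other 7 genes, SLC6A6 began at overlapping levels in the lines, with a log2 difference of -0.13 between untreated NRF2 ΔC and control cells. The corresponding differences were -1.88 for TRIM16L, -1.37 for AKR1C3, -1.18 for TRIM16, -1.01 for FTL, -0.74 for TXNRD1, -0.40 for SLC48A1 and -0.35 for PTGR1. The interaction of SLC6A6 was 1.43 (standard error 0.21, adjusted p = 0.0464). The untreated difference shares its samples with the interaction, so the pair of values is a description of where each gene started.

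When any 1 of the 12 libraries was left out, 2 to 8 genes were called, and TRIM16L and TXNRD1 were called in all 12 of these fits. PTGR1 was called in 4 of them, AKR1C3, SLC6A6 and TRIM16 in 1 each, and FTL and SLC48A1 in 0. Without the 2 libraries that held prostate genes, no gene was called by edgeR without the block. There 111 genes with a more positive response in control and 34 with one in NRF2 ΔC cells reached an unadjusted p-value under 0.05. The sizes moved little, to 2.85 for TRIM16L, 1.38 for TXNRD1, 1.31 for PTGR1, 1.21 for FTL, 1.40 for SLC6A6, 2.39 for AKR1C3, 1.10 for SLC48A1 and 1.74 for TRIM16, with adjusted p-values from 0.101 to 0.497. With the block, and without both samples of control number 2 and of NRF2 ΔC number 3, the fit called 82 genes (71 and 11 in the same order), all 8 among them.

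Promoter sequence was examined for the core of the ARE. RefSeq promoters (GRCh38.p14, 250 bases before to 50 after the gene start) were searched on both strands for TGACNNNGC. Of all 27305 promoters in the table, 3702 (13.6%) held it, as did 15.1% of the 9702 matched promoters of tested genes. Of the 9 called genes 6 matched and 1, TXNRD1, held the core. Of the 107 genes with a more positive response in control cells 75 matched and 15 (20.0%) held it. Of the 19 with a more positive response in NRF2 ΔC cells 11 matched and 1 held it. The AP-1 motif TGACTCA (or TGAGTCA), which overlaps the core where the letters allow, stood in 4.92% of all promoters, 311 (3.21%) of the 9702, 8 (10.7%) of the 75 and 3 of the 11. The sites shown are a selection from genes called with the block, 5 on the side of control cells and MT2A on that of NRF2 ΔC cells. Only TXNRD1 among these genes was called without the block. The core also stood in genes of the control side that are not shown, such as FECH and CBR1. Others not shown, HSPB3, SH3TC2, MALAT1 and ABCB6, fell in NRF2 ΔC cells by the block fit. A further core of ME1 is not shown either. Each runs 5′ to 3′ on the gene's strand, with the core or its reverse complement in capitals.
TXNRD1 chr12:104215670-104215698 (plus strand): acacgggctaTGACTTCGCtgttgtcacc
TXNRD1 chr12:104215761-104215789 (plus strand): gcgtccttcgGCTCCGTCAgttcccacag
GCLM chr1:93909446-93909474 (minus strand): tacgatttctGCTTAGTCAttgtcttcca
PIR chrX:15493289-15493317 (minus strand): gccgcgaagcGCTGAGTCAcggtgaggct
ME1 chr6:83431170-83431198 (minus strand): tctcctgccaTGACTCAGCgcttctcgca
MT2A chr16:56608470-56608498 (plus strand): gagccgcaagTGACTCAGCgcggggcgtg
In PIR, ME1 and MT2A the capitals also hold the AP-1 letters. A match is a run of letters, not a measured binding site, and AREs further from the start are outside this window.

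The NRF2 targets chosen for RT-qPCR, 8 in number, all rose with NACET in control cells. In the interaction, edgeR called 0 of them without the block (all 8 had an unadjusted p-value under 0.05) and 7 with it, and DESeq2 without the block called 5. SLC7A11, the cystine transporter that feeds glutathione synthesis, was at 24.6, 36.5 and 30.7 CPM in untreated and at 191, 222 and 172 CPM in NACET-treated control cells. In NRF2 ΔC cells it went from 11.4, 18.5 and 14.4 to 21.9, 36.8 and 17 CPM. It thus rose in each numbered pair of both lines, by less in NRF2 ΔC cells, and its interaction was 1.90 (adjusted p = 0.186, and 4.13e-06 with the block). GCLM, the modifier subunit of the enzyme that begins glutathione synthesis, went from 15.1, 24 and 18.9 to 74.9, 89.8 and 73.1 CPM in control cells and from 11, 10.6 and 12.1 to 17.8, 16.5 and 20.2 CPM in NRF2 ΔC cells. GCLM was the RT-qPCR target that passed in NRF2 ΔC cells without the block (log2 0.70, adjusted p = 0.0244), and its interaction was 1.34 (adjusted p = 0.0913, and 7.97e-06 with the block). With the block all 8 targets were called as rising in NRF2 ΔC cells, against 18.0% of all genes. Their adjusted p-values ran from 3.07e-05 for GCLM to 0.0321 for MGST1. GCLC, the catalytic subunit, is the target that the block did not call either (interaction 0.44, adjusted p = 0.0553), although its 3 differences in control cells lay above those in NRF2 ΔC cells.

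HMOX1, heme oxygenase 1, was at 46.2, 60.6 and 65.9 CPM in untreated control cells and at 201, 266 and 357 CPM with NACET. NRF2 ΔC cells held 38.8, 54.2 and 45.6 CPM of it untreated and 42.2, 79.4 and 74.3 CPM with NACET, so the untreated lines overlapped. Its interaction was 1.76 (adjusted p = 0.231, and 6.36e-07 with the block). NQO1, a quinone reductase, started from the widest gap between the lines among these 8 genes, a log2 difference of -4.03. It went from 169, 335 and 179 to 1064, 1201 and 1101 CPM in control cells and from 15.5, 11.4 and 15.1 to 20.1, 18.7 and 22.4 CPM in NRF2 ΔC cells. Its ratio nevertheless differed by a similar amount to that of HMOX1, with an interaction of 1.76 (adjusted p = 0.148, and 2.56e-05 with the block). The smaller interactions were 0.85 for GSR, glutathione reductase, 0.63 for TXN, thioredoxin, and 0.58 for MGST1, a microsomal glutathione transferase. Their adjusted p-values were 0.21, 1 and 1 without the block and 1.81e-05, 0.000552 and 0.00675 with it. MGST1 was not called when both control samples of number 3 were left out.

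**Figure D2:**
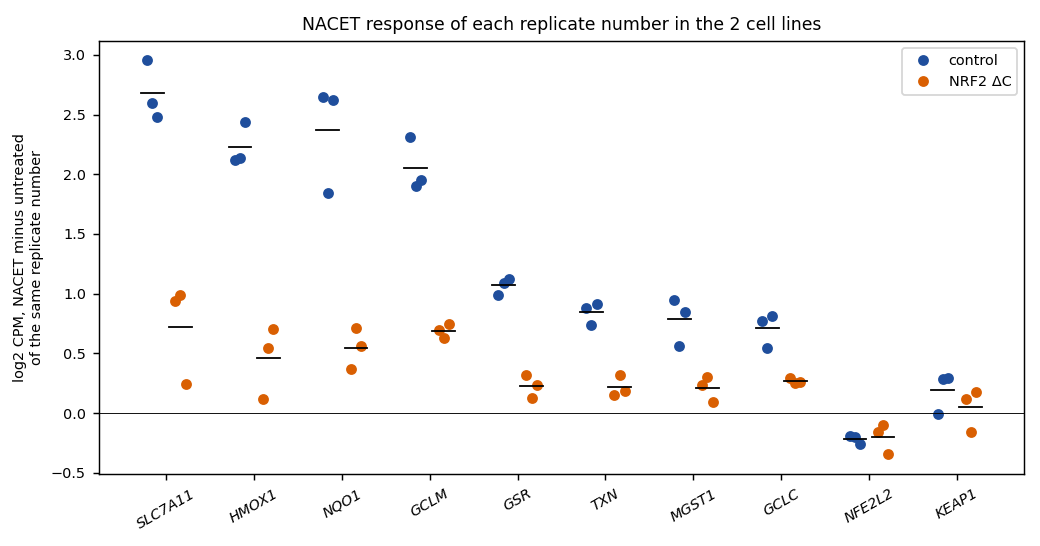
Difference in log2 CPM between the NACET-treated and the untreated sample of the same replicate number, for the 8 RT-qPCR targets, NFE2L2 and KEAP1, with a point for each number and a bar for the mean of 3. In all 8 targets the 3 control differences (blue) lie above the 3 NRF2 ΔC differences (orange), while those of NFE2L2 and KEAP1 overlap.

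The remaining genes of the pathway were counted by role, over lists written with earlier results of these data known. Over all 14002 genes, 7423 had a positive interaction, and 0.0643% were called on that side, or 0.764% with the block. In the list of reductases of quinones and carbonyls, all 14 tested members had a positive interaction, with a median of 0.65 against 0.01 over all genes. The test called 2 of them, DESeq2 7 of 20, and the block fit 9, which are AKR1C3, PTGR1, NQO1, OSGIN1, PIR, EPHX1, CBR1, ALDH3A2 and AKR1B1. The list is named for its reductases, and members such as EPHX1, ALDH3A2, OSGIN1 and PIR have other roles. OSGIN1, an oxidative stress induced growth inhibitor, went from 4.8, 6.22 and 6.12 to 20.3, 36.9 and 42.6 CPM in control cells and from 2.52, 6.39 and 5.59 to 4.1, 6.78 and 7.19 CPM in NRF2 ΔC cells. Its groups overlapped in NRF2 ΔC cells only, and its interaction was 2.24 (adjusted p = 0.346, and 7.1e-06 with the block). PIR, an iron-binding nuclear protein, lay between 1.81 and 3.09 CPM in untreated and between 9.11 and 10.9 CPM in NACET-treated control cells, against 0.785 to 1.89 and 0.861 to 1.34 CPM in NRF2 ΔC cells. Its interaction was 2.20 (adjusted p = 0.231, and 0.000479 with the block).

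Of the heme and iron list, 2 of 18 tested genes were called and 6 with the block, with a median interaction of 0.14. Beside FTL, SLC48A1 and HMOX1 these were FTH1 (0.53), the ferritin heavy chain, FECH (0.79), which inserts iron into heme, and ABCB6 (1.26), a porphyrin transporter. ABCB6 rose in control cells from 45.9, 55.3 and 36.6 to 77.4, 81.4 and 71 CPM and fell in NRF2 ΔC cells from 42.4, 30.7 and 31.1 to 28.6, 20.9 and 23.1 CPM, both called with the block. HMOX2, the constitutive heme oxygenase, had an interaction of -0.07. FTH1, like FTL, has processed copies that could take reads.

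Of 17 tested genes of the thioredoxin system 1 was called and 3 with the block, TXNRD1, TXN and SRXN1. SRXN1, sulfiredoxin, repairs peroxiredoxins and had an interaction of 1.15, from 83.9, 102 and 108 to 276, 325 and 337 CPM in control cells and from 78.7, 100 and 110 to 115, 144 and 158 CPM in NRF2 ΔC cells. The mitochondrial members were not called, with interactions of -0.10 for TXN2 and -0.29 for TXNRD2. Of 13 tested genes of cystine uptake and glutathione synthesis, 0 were called (4 at an unadjusted p-value under 0.05) and 3 with the block, SLC7A11, GCLM and GSR. Of 15 genes of NADPH supply 1 was called and 4 with the block, among them ME1 (0.77), malic enzyme, TALDO1 (0.69), transaldolase, and TKT (0.44), transketolase.

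The other roles were touched in single genes. Among 16 tested glutathione transferases MGST1 was called with the block, among 7 ABC exporters ABCC3 (1.14), which exports conjugates, among 14 genes of cysteine breakdown and taurine SLC6A6, and among 10 NRF2 partners MAFG (0.69). The medians of these lists lay between -0.03 and 0.07, near that of all genes. Of the 18 tested genes of p62, TRIM16 and selective autophagy, 2 were called and 3 with the block, and the LC3 and GABARAP genes were not. The enzymes of cysteine synthesis CTH and CBS had interactions of -0.58 and -0.53, that is, more positive responses in NRF2 ΔC cells, and neither was called.

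The study had listed 41 genes that NACET, and not N-acetylcysteine, raised in other ARPE-19 samples at both serum concentrations. Those cells were confluent and were treated chronically at a lower dose of NACET than here. Of the 40 tested here, 39 had a positive interaction (median 0.88), against 7423 of all 14002 genes. The test called 8 of the 40, DESeq2 18 of 41 and the block 30, all more positive in control cells. The exception in sign was PCDHGC3 (-0.13). LOC344887, on this list, had 5, 9 and 8 counts in untreated and 149, 131 and 182 counts in NACET-treated control cells, against 0, 0 and 0 and then 1, 0 and 0 counts in NRF2 ΔC cells. With both NRF2 ΔC groups under 3 counts in every library, its fitted interaction, which counts among the 39, says nothing of its size.

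The 126 genes called with the block were then sorted by what each line did in the same fit, and the median log2 changes given for each class are from the fit without the block. Of the 107 with a more positive response in control cells, 25 rose in both lines, with median log2 changes of 1.53 (control) and 0.47 (NRF2 ΔC). A further 27 rose in control cells and were not called in NRF2 ΔC cells, and 10 rose in control and fell in NRF2 ΔC cells. The others did not rise in control cells. Of these, 26 fell in both lines, with medians of -0.71 (control) and -1.31 (NRF2 ΔC), and 19 fell in NRF2 ΔC cells and were not called in control cells (medians -0.54 and 0.03). In the 107 genes the untreated level was lower in NRF2 ΔC cells in 34, higher in 2 and not called different in 71, where over all genes 592 (4.23%) were lower and 164 (1.17%) higher. In the 19 genes of the other side it was lower in 7, higher in 1 and not called different in 11. The untreated samples also enter the interaction, so these counts are a description. All 107 had control differences above the NRF2 ΔC differences for the 3 numbers, against 7.81% of all genes. The block fit that chose them compares these same differences, so this describes the selection and is no further support. Of the 107, 32 stand on a list of the NRF2 pathway by role. Those lists were written with earlier results of these data known, so the count is only a description.

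The genes that fell more in NRF2 ΔC cells are described by examples chosen after their values were seen, together with HSPB3. NEAT1, a nuclear long non-coding RNA, was at 1709, 1860 and 2401 CPM in untreated and 1030, 1126 and 1137 CPM in NACET-treated control cells. NRF2 ΔC cells held it at 2137, 2156 and 2310 CPM untreated and 869, 698 and 709 CPM with NACET, so it fell in both lines and ended lower in NRF2 ΔC cells (block log2 changes -0.84 and -1.54). DIO2, which activates thyroid hormone, fell from 945, 856 and 905 to 604, 500 and 542 CPM in control and from 825, 776 and 711 to 339, 290 and 231 CPM in NRF2 ΔC cells. IGFBP3, which binds insulin-like growth factors, fell in NRF2 ΔC cells by the block fit and was not called in control cells, with log2 changes of -0.56 (NRF2 ΔC) and -0.05 (control). Without the numbers of the 2 libraries that stood apart, the block called DIO2 but neither NEAT1 (adjusted p = 0.0512) nor IGFBP3 (0.0565). HSPB3, a small heat shock protein, lay between 5.99 and 9.45 CPM in untreated and 2.14 and 2.83 CPM in treated control cells, and between 1.71 and 3.54 and then 0.181 and 0.418 CPM in NRF2 ΔC cells. Its interaction of 1.61 was called with the block (adjusted p = 0.0223), but not in 6 of 11 other settings of that fit, among them the one without the numbers of the 2 libraries that stood apart.

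IL8, a neutrophil chemokine, rose in both lines in the block fit. It was at 0.178, 0.675 and 0.318 CPM in untreated and 4.1, 9.79 and 2.92 CPM in NACET-treated control cells, and at 0.339, 0.623 and 0.185 and then 1.51, 1.67 and 0.542 CPM in NRF2 ΔC cells. Its interaction of 2.20 rests on few counts, was called with the block alone (adjusted p = 0.0323) and was lost in 6 of the 11 other settings. Without the 2 libraries that stood apart it was 1.16 without the block. Of 12 tested inflammatory cytokines no other was called.

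The 19 genes with a larger response in NRF2 ΔC cells were called with the block alone. None stands on a list of the NRF2 pathway, again only a description. In 16 of the 19 the 3 differences did not overlap between the lines, against 6.26% of all genes with NRF2 ΔC higher. The block fit that chose them compares these same differences. Of the 19, 8 rose in both lines, 8 rose in NRF2 ΔC cells and were not called in control cells, and 3 fell in control and rose in NRF2 ΔC cells. IVL, involucrin, a protein of the envelope of keratinized cells, was at 64.6, 78.6 and 62.9 CPM in untreated and 81.2, 80.5 and 71.4 CPM in NACET-treated control cells. In NRF2 ΔC cells it was at 2.04, 5.06 and 5.22 CPM untreated and 8.57, 14.2 and 17.6 CPM with NACET, higher than before but below every control library. Its interaction was -1.52 (adjusted p = 7.1e-06 with the block, 1 without). LAT, an adaptor of T cell receptor signalling, had the opposite starting point, at 4.15 to 6.26 CPM in untreated control and 19.5 to 30.7 CPM in untreated NRF2 ΔC cells. It was at 3.56 to 3.99 CPM in treated control and 33.5 to 48.9 CPM in treated NRF2 ΔC cells, an interaction of -1.05 (0.00122 with the block).

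The other named genes of this side were ANTXR2 (-0.93), an anthrax toxin receptor that binds collagen, COBLL1 (-0.91), AKAP12 (-0.75), which anchors protein kinase A, MGLL (-0.69), which splits monoacylglycerols, LOC646329 (-0.89) and NUPR1 (-0.60), a stress-induced nuclear protein. AKAP12 was at 166, 111 and 107 CPM in untreated and 132, 117 and 103 CPM in treated control cells, which overlapped, and at 75.7, 70.6 and 79.3 and then 109, 118 and 122 CPM in NRF2 ΔC cells, which did not. MGLL rose from 25.7, 18.5 and 20.4 to 52.7, 34.8 and 36.4 CPM in NRF2 ΔC cells and was at 24.5 to 33.7 and 29.6 to 38.9 CPM in control cells. SEMA7A, a semaphorin, had an interaction of -1.11 (0.033 with the block) on levels of 1.06 to 1.40 CPM in untreated NRF2 ΔC cells, and it was not called in 6 of the 11 other settings. CSRP1, a LIM domain protein, had 1, 0 and 0 counts in untreated and 3, 1 and 38 counts in NACET-treated NRF2 ΔC cells. Those 38 counts lie in 1 of the libraries with prostate genes, and without it CSRP1 was not called. FOLH1, itself a prostate gene, is among the 19 as well.

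**Figure D3:**
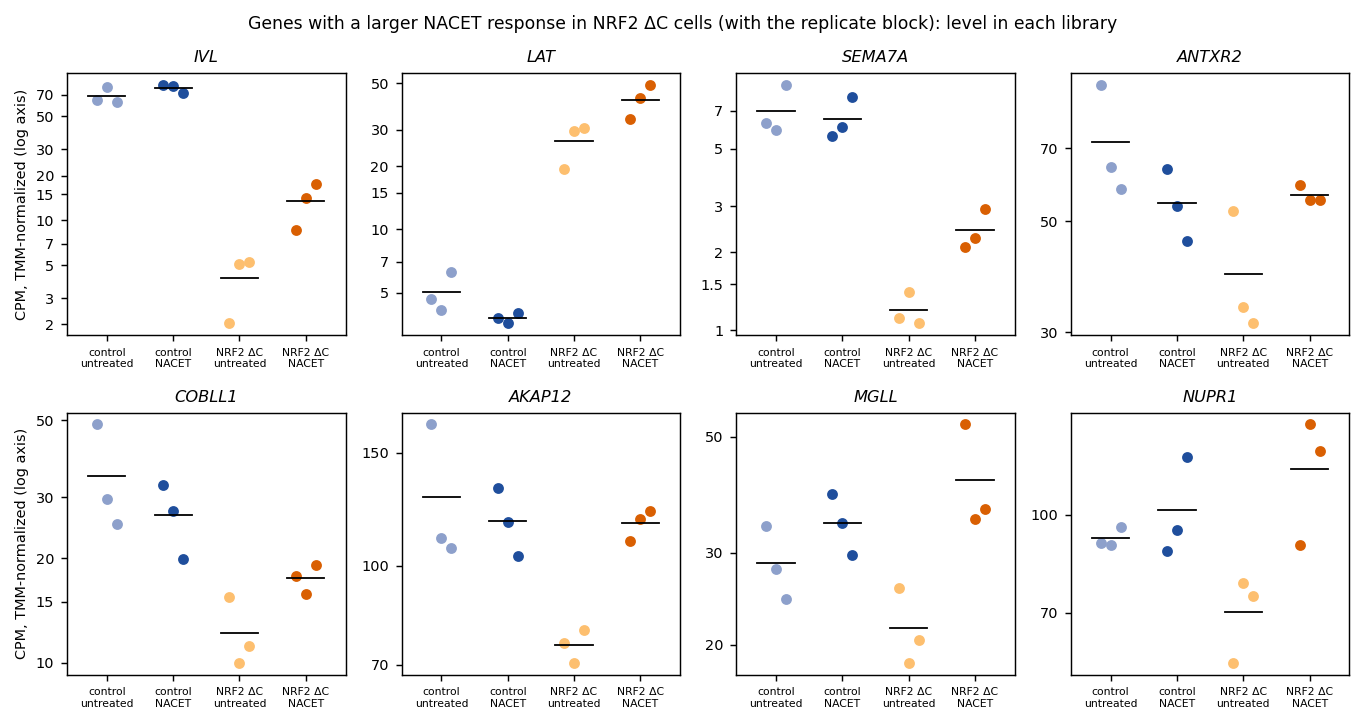
Levels of 8 genes with a larger NACET response in NRF2 ΔC cells by the fit with the replicate block, in TMM-normalized CPM on log axes that differ between panels, with a point for each library and a black bar for the mean of 3. In each panel the NRF2 ΔC mean is higher with NACET than untreated, and for IVL all NRF2 ΔC libraries, at 2.04 to 17.6 CPM, lie below the control libraries at 62.9 to 81.2 CPM.

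Stress pathways outside NRF2 were counted in the same way. ATF4 drives the integrated stress response when amino acids or protein folding fail. Of its 27 tested genes, 4 rose in control and 10 in NRF2 ΔC cells without the block, against 2.17% and 3.28% of all genes. With the block 13 and 16 of the 27 rose (16.5% and 18.0% of all genes) and 5 and 2 fell. A positive interaction was found in 7 of the 27 (median -0.15), against 7423 of all 14002 genes. In edgeR's interaction test 0 of the 27 were called (1 at an unadjusted p-value under 0.05), and with the block 1 was, NUPR1. ATF4 rose in both lines (log2 0.65 and 0.81) with an interaction of -0.17. GDF15 on this list had 1, 104 and 1 counts in NACET-treated control cells, the 104 in a library with prostate genes. Of 14 immediate early genes JUNB (-0.59), a subunit of AP-1, and of 6 metallothioneins and zinc genes MT2A (-0.54) were called with the block, both with larger rises in NRF2 ΔC cells. MT2A was at 213, 260 and 377 and then 245, 336 and 519 CPM in control cells, and at 235, 408 and 488 and then 444, 729 and 954 CPM in NRF2 ΔC cells. Without the 2 libraries with prostate genes its interaction was -0.22 without the block, and without their numbers the block called MT2A (adjusted p = 0.0276) but not JUNB (0.123). Near-identical metallothioneins could share reads of MT2A.

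Of 29 hypoxia genes, 25 had a positive interaction (median 0.19), against 7423 of all 14002 genes. With the block 5 of the 29 were called, against 0.764% of all genes on that side. They were PFKFB4 (0.91) and PFKFB3 (0.48), which set the rate of glycolysis, and GBE1 (0.61), which branches glycogen. The others were CA12 (0.43), a carbonic anhydrase, and SLC2A1 (0.37), a glucose transporter. PFKFB4 was at 62.6, 86.9 and 48.4 and then 67.1, 81.4 and 62.9 CPM in control cells, and at 102, 39.5 and 56 and then 41.3, 32.9 and 37.8 CPM in NRF2 ΔC cells. Thus 4 of the 5 fell in NRF2 ΔC cells by the block fit, and CA12 rose in control cells. Without the numbers of the 2 libraries with prostate genes, CA12 (adjusted p = 0.0548) and SLC2A1 (0.603) were not called. All 27 DNA replication genes had a positive interaction (median 0.21), and edgeR called 0 of them with or without the block (0 at an unadjusted p-value under 0.05 without it). Lists of p53 targets (21 tested), mitosis (25), aminoacyl-tRNA synthetases (20), cholesterol synthesis (22), ER chaperones (23) and heat shock proteins (13) had medians from -0.15 to 0.11 and 0 called genes in either fit. An unadjusted p-value under 0.05 was reached by 1 ER chaperone gene and no other of these without the block, and with it by 6, 2, 2, 1, 8 and 0 genes in the order of the lists. MITF, of the RPE markers, was called with the block and fell in both lines (log2 -0.39 and -0.80), but it was not called without those numbers (adjusted p = 0.224).

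Values with H2O2 are set beside those with NACET from a fit of all 18 samples; both share the untreated samples. In control cells the log2 changes of the 8 called genes with H2O2 were 2.11 ± 0.24 for TRIM16L (standard error), 1.46 ± 0.23 for TRIM16, 1.05 ± 0.11 for TXNRD1, 1.01 ± 0.20 for SLC6A6, 0.94 ± 0.12 for SLC48A1, 0.79 ± 0.13 for PTGR1, 0.48 ± 0.13 for FTL and 0.48 ± 0.25 for AKR1C3, each below its value with NACET. The NRF2 ΔC values were 0.31 ± 0.26, 0.16 ± 0.24, 0.12 ± 0.10, -0.14 ± 0.20, 0.51 ± 0.12, 0.20 ± 0.13, 0.25 ± 0.13 and -1.81 ± 0.32 in the same order. SLC7A11 and HMOX1 stood apart from them, at 2.62 ± 0.29 and 2.80 ± 0.33 (control) and 2.56 ± 0.30 and 1.98 ± 0.32 (NRF2 ΔC). With NACET the same fit of SLC7A11 gave 2.66 (control) and 0.79 (NRF2 ΔC). These changes were not tested against those of NACET. The 8 prostate genes summed to 2.1 to 7.68 CPM in the 3 H2O2-treated NRF2 ΔC libraries and to 0.120 to 1.16 CPM in the H2O2-treated control libraries, and their part in these values was not tested.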

How the data were processed

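mRNA of 18 ARPE-19 samples was sequenced by the authors as single-end reads from TruSeq v2 polyA libraries. Per the labels and the study's methods, the authors mapped reads with TopHat 2.1.0 (Bowtie) to hg19, counted them per gene with HTSeq 0.11.2 without regard to strand, and removed rRNA genes. The gene annotation is not given in the sources used here. The deposited values are whole-number counts for 23411 symbols, without normalization, and 5 summary lines that name no gene. These entered neither library sizes nor tests. In the 12 libraries compared, 15.3 to 17.5% of reads lay on no gene, 0.955 to 1.13% were ambiguous and 8.24 to 10.1% mapped to several places. At a median of 21755665.5 counts on genes, replicate spread exceeds counting error: the 12 replicate pairs had chi-square values of at least 11.7 per degree of freedom. Without strand, reads of overlapping and antisense genes cannot be told apart.

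Samples were grouped from their labels. The interaction, both responses and the untreated difference come from 1 fit of the 12 samples with edgeR 4.0.16 in R 4.3.3 (filterByExpr, TMM, quasi-likelihood test, Benjamini-Hochberg adjustment over 14002 genes, called under 0.05). CPM were computed here from the deposited counts. DESeq2 1.42.0, the study's tool, was an alternative, as were RLE and upper-quartile normalization, no filter, a filter of 1 CPM in 3 samples, a fit of all 18 samples, a robust fit, the replicate number as a block over both lines or within each line, and leaving out each sample. Leaving out the 2 libraries with prostate genes and the settings of the block fit were added after seeing the data. Nothing says that replicates came from separate cultures, so p-values measure only the spread between these samples, which may be technical. Samples with the same number within a line deviated together (correlation of deviations from group means 0.476 to 0.887 in 6 pairs over 9828 genes with a mean of at least 10 CPM; -0.805 to 0.318 for different numbers), so the numbers pair the samples within a line. Between lines the same number gave -0.278 to 0.800. The labels do not say what a number marks.

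Named genes are NFE2L2, KEAP1, the 8 RT-qPCR targets, 6 genes the study labels in its volcano plots, the genes called in the interaction with a mean of at least 1 CPM, the 10 largest and 10 smallest interactions called with the block at that level whose same-number differences (log2 CPM, prior count 2) do not overlap, and list members where a list is described. Members and lists were chosen with earlier results of these data known. One gene called in the interaction is not reported here. Locations are from GENCODE v44 lifted to GRCh37 and promoters from RefSeq. Scripts were tested on simulated data.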

Additional observations from a re-analysis of the deposited data

Results flagged for a closer look

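The 8 genes below differed in their NACET response between the cell lines by the test of the difference itself (edgeR's quasi-likelihood test, Benjamini-Hochberg adjusted p under 0.05 over all genes tested), each with the larger response in control cells. The log2 interactions were 2.95 for TRIM16L, 2.38 for AKR1C3, 1.88 for TRIM16, 1.43 for SLC6A6, 1.39 for TXNRD1, 1.26 for PTGR1, 1.10 for FTL and 1.06 for SLC48A1. In each of them the differences between samples of the same number were larger in control cells for all 3 numbers. The test drew on these same samples, so this is a description and no further support.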

How the results depend on the processing

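The 8 named genes called in the interaction kept their sign in the 22 other settings tried, but lost the call in 18 (FTL), 17 (SLC48A1), 16 (TRIM16), 14 (AKR1C3 and SLC6A6), 9 (PTGR1) and 1 (TRIM16L and TXNRD1) of them. With RLE normalization TRIM16L, TXNRD1 and PTGR1 kept it, and with upper-quartile normalization also SLC6A6. The count of 9 genes called in the interaction was 27 with DESeq2, 3 with RLE and 4 with upper-quartile normalization, and 7, 9, 6 and 6 with no filter, a filter on CPM, all 18 samples and a robust fit. With the replicate block it was 38 over both lines (37 more positive in control and 1 more positive in NRF2 ΔC cells) and 126 within each line (107 and 19). Without the 2 libraries with prostate genes it was 0. Leaving out 1 library gave 2 to 8 genes, and 2 to 4 for each library other than untreated control replicate 2. The 583 genes called in the control response became 1204 with DESeq2, 2861 and 4605 with the block over both lines and within each line, 83 without the 2 libraries, and 125 (without control NACET replicate 2) to 753 when 1 was left out. The 976 in NRF2 ΔC cells became 1603, 3579, 5281 and 194 in the same order, and 323 (without NACET replicate 2) to 1040. The untreated difference of 756 genes became 2254 and 1846 with the block. Within the block fit, RLE, upper-quartile normalization and DESeq2 gave 125, 126 and 119 genes in place of 126, and no filter gave 255 (171 and 84). Without the numbers of the 2 libraries it gave 82 (71 and 11), and 76 of these were among the 126. Without 1 number of 1 line it gave 70 to 264 (60 to 175 and 10 to 89), with the extremes for control number 3 and NRF2 ΔC number 2. Of 33 named genes called with the block, 27 kept the call in all 11 other settings of that fit. The interaction of NFE2L2 ranged from -0.074 to 0.036 with 1 library left out and turned positive without NRF2 ΔC NACET replicate 2 (0.036). The causes of these differences were not tested. With 3 samples a group, genes of few counts, such as IL8, CSRP1 and SEMA7A, are limited by depth.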

Other observations

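Counts of the 8 prostate genes were also present at a low level in the 3 H2O2-treated NRF2 ΔC libraries, where KLK3 had 41, 14 and 65 counts, against 0, 12 and 0 counts in the H2O2-treated control libraries.

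Among the genes called with the block, MALAT1, like NEAT1 a nuclear long non-coding RNA and chosen after its values were seen, fell in NRF2 ΔC cells (block log2 change -0.81) and was not called in control cells (-0.11).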
